A study of Homo sapiens with 12 samples.

Results

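XPO4, USP3, WDR63 and KIAA1324 are 4 of the 18950 genes in a table of RNA levels from sorted prostate cancer cells. They were chosen because their RNA was far higher in the GFP-bright than in the GFP-dim cells labelled DU145, while the cells labelled PC3 lacked such a difference. Those levels, and the differences between sorts within each label, are therefore described here without a test.

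The study asked how cells with active Wnt/β-catenin signalling differ from cells without it in established human prostate cancer lines. Cells labelled DU145 or PC3, grown in DMEM with 10% fetal bovine serum, were sorted on GFP brightness, and total RNA of the brightest 10% (GFP+, called signalling active) and the dimmest 10% (GFP-, called inactive) was sequenced. The 12 libraries form 4 groups of 3: DU145 GFP+, DU145 GFP-, PC3 GFP+ and PC3 GFP-. The labels name neither the construct that carries GFP nor whether a line was a clone or a mixed population. They do not state that replicates came from different cultures or sorts. The p-values therefore describe the spread among the 3 libraries of a group, pooled over the 4 groups and moderated across genes. The SE of a gene is thus the same in DU145 and PC3, and that spread may be purely technical.

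Each gene belongs to a different system. XPO4 encodes exportin 4, a nuclear transport receptor of the importin β family that carries the translation factor eIF5A and SMAD3 out of the nucleus and brings SOX2 in. USP3 encodes a deubiquitinase that removes ubiquitin from histone H2A and so opposes the ligases RNF8 and RNF168 at sites of DNA damage. WDR63, also named DNAI3, encodes an intermediate chain of the inner dynein arm, part of the motor of motile cilia. KIAA1324, also named ELAPOR1 or EIG121, encodes an oestrogen-induced membrane protein of the endosome and lysosome system that has been linked to autophagy and secretory granules.

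In GENCODE 29 (GRCh38) XPO4 (ENSG00000132953) spans chr13:20777329-20903048 on the minus strand, USP3 (ENSG00000140455) chr15:63504511-63594640 on the plus strand, WDR63 (ENSG00000162643) chr1:84999147-85133138 on the plus strand and KIAA1324 (ENSG00000116299) chr1:109113679-109206781 on the plus strand. Since the genes were chosen for a shared pattern, the DNA just upstream of a RefSeq transcript start is shown for each, as far as it holds no protein-coding exon of GENCODE (RefSeq, GRCh38.p14, 5′ to 3′ on the strand of the gene). The coordinates are chr13:20902811-20903024 for XPO4, chr15:63504343-63504510 for USP3, chr1:85062077-85062311 for WDR63 and chr1:109186299-109186548 for KIAA1324. The starts used lie inside the GENCODE spans of all these genes, not at their ends, and farthest inside for WDR63 and KIAA1324. Only the stretch shown for USP3 lies outside the span of its gene. Capitals mark GGCAAC, the core of the X-box bound by RFX factors of ciliary genes, and CTTTGA, the core of the site bound by TCF and LEF factors.
XPO4: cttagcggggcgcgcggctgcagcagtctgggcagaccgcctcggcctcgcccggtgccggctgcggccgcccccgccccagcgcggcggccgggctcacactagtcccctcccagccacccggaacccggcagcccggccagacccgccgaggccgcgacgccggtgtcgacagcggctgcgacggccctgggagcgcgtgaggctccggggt
USP3: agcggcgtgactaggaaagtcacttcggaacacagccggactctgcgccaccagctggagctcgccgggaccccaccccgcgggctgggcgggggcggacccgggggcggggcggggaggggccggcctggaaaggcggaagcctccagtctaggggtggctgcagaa
WDR63: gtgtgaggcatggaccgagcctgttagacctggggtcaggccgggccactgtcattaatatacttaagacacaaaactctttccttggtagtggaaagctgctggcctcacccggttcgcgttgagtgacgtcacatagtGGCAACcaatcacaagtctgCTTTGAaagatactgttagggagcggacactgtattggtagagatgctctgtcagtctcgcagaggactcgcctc
KIAA1324: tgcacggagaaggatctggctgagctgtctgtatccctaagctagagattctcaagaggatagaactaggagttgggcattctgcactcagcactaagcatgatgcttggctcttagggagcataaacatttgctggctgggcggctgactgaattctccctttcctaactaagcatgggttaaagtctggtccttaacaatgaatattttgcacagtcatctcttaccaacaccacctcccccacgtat

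Both motifs were searched on both strands of the whole 250 bases before each start. The window of WDR63 held 1 copy of GGCAAC, 110 bases before the start, and 1 copy of CTTTGA, 90 bases before it. The windows of XPO4, USP3 and KIAA1324, the outer start of KIAA1324 included, held neither string of letters. CTTTGA occurred in 11.2% and GGCAAC in 10.2% of the 34943 RefSeq promoter windows of this length, so a match is a common event and only a description of the letters. The windows also differed in base composition. GC content was 81.2% in the window of XPO4 shown, 72.4% in that of USP3 and 51.2% in that of WDR63. For KIAA1324 it was 47.2% at the inner start and 69.6% at the outer start.

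Levels are given as CPM, counts scaled to the library total, taken from the deposited log2 values and including an offset of 0.5 counts. Total estimated counts ran from 13453614 to 21528810 per library, and 3 counts, taken as the detection floor, correspond to 0.130 to 0.233 CPM. The library DU145 GFP+ 3 stood apart from the other DU145 GFP+ libraries (r = 0.974 with replicate 1, against 0.985 between replicates 1 and 2, across genes). PC3 GFP- 2 and 3 were also far apart (r = 0.977, against 0.985 between PC3 GFP- 1 and 3).

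The labels of the lines went against several markers. PC3 is known for homozygous loss of CTNNA1, the α-catenin gene, yet CTNNA1 stood at 387 ± 17.0 CPM in PC3 GFP+ and 408 ± 10.2 CPM in PC3 GFP- (SD, n = 3 each). CDH1 and EPCAM, epithelial genes that both lines are known to express, had group means of at most 0.381 and 0.107 CPM. KRT8, a keratin of luminal epithelium, was at 1753 and 2755 CPM in the DU145 sorts and at 18.1 and 26.1 CPM in the PC3 sorts. DU145 and PC3 therefore stand for the labels throughout. LEF1, a Wnt/β-catenin target, was higher in GFP+ under both labels (limma). In DU145 it stood at 2.21 against 0.642 CPM (log2 difference 1.87 ± 0.36 SE, adjusted p = 0.00508). The PC3 sorts held 4.41 against 1.43 CPM (1.67 ± 0.36, adjusted p = 0.0106), and this call was lost without PC3 GFP+ 1 (limma, adjusted p = 0.0568). LEF1 was chosen as 1 of 9 tested Wnt feedback genes, whose median difference was -0.29 in DU145 and -0.12 in PC3.

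Of 22 markers of blood, stromal, endothelial, neuroendocrine and luminal prostate cells, 17 were in the table. Their summed level was 73.7 to 84.8 CPM in DU145 GFP+, 96.2 to 98.6 in DU145 GFP-, 45.3 to 47.5 in PC3 GFP+ and 35.9 to 37.2 in PC3 GFP-, mostly SYP and CD68. Between 4 and 5 of the 17 were at 0 in all libraries of a group, and the group means of PTPRC, CHGA and KLK3 stayed at or below 0.0985 CPM. The stromal collagen gene COL3A1 was at 2.65 CPM in PC3 GFP+ against 0.0475 CPM in PC3 GFP- and near 0 in DU145. The part of these markers in the differences below was not tested.

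XPO4 had the highest level of the 4 genes in DU145 GFP+, both in CPM and per kilobase. It measured 324.7, 317.6 and 235.6 CPM in the 3 DU145 GFP+ libraries and 22.3, 25.2 and 23.5 CPM in the DU145 GFP- libraries. The PC3 GFP+ libraries held 57.6, 57.8 and 57.1 CPM and the PC3 GFP- libraries 48.0, 37.1 and 51.9 CPM. No 2 of the 4 groups overlapped, DU145 GFP+ 3 was the lowest of its group, and the order of the means was DU145 GFP+, PC3 GFP+, PC3 GFP- and DU145 GFP-.

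The DU145 sorts thus lay on both sides of the PC3 sorts. XPO4 in DU145 GFP- reached 8.08% of its level in DU145 GFP+, while PC3 GFP- exceeded DU145 GFP- by 1.93-fold. The log2 difference between sorts was 3.62 ± 0.13 (SE, 12.3-fold) in DU145 and 0.35 ± 0.13 in PC3. Without DU145 GFP+ 3 the DU145 value was 3.77. Even the lowest DU145 GFP+ library held 9.35 times as much XPO4 RNA as the highest DU145 GFP- library.

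USP3 was expressed in every group. The DU145 GFP+ libraries held 205.5, 237.1 and 187.1 CPM, and the DU145 GFP- libraries 34.9, 39.7 and 34.1 CPM. In PC3 the values were 26.1, 25.9 and 23.9 CPM in GFP+ and 23.6, 22.6 and 24.1 CPM in GFP-. The DU145 groups stood clear of each other and of PC3, whereas the PC3 sorts overlapped.

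USP3 showed the smallest relative difference of the 4 genes. Its DU145 GFP- level was 17.3% of its DU145 GFP+ level and 1.54-fold above PC3 GFP-, so it was not off in the dim sort. The log2 difference was 2.53 ± 0.10 (5.78-fold) in DU145 and 0.11 ± 0.10 in PC3, and the closest libraries of the DU145 sorts were 4.71-fold apart. USP3 shares 1760 exon bases, 22.7% of its own, with the antisense gene USP3-AS1. Whether the counting used strand is not stated, so reads of the overlap may have been assigned to either gene. USP3-AS1 itself was listed with 1 to 15.27 estimated counts per library, and USP3 had fractional counts in 6 of the 12 libraries.

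WDR63 came nearest to absence outside DU145 GFP+. It had 453, 604 and 440 estimated counts in the DU145 GFP+ libraries (32.1, 36.4 and 34.2 CPM) and 0, 0 and 6 counts in the DU145 GFP- libraries. PC3 GFP+ held 12, 4 and 10 counts and PC3 GFP- 5, 4 and 12 counts, or 0.242 to 0.747 CPM. The 3 DU145 GFP+ libraries lay far above the other 9, whose 3 groups overlapped.

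The size of the WDR63 difference cannot be fixed by these counts. The fitted log2 difference in DU145 was 8.84 ± 0.82, but it rests on the offset because 2 libraries were at 0, and it became 10.09 without DU145 GFP- 3, the library with 6 counts. The lowest DU145 GFP+ library was at least 166-fold higher than the floor of 3 counts per library, taken at the higher of the floors of the libraries at 0 (0.194 CPM). It held 81.2 times as much as the highest DU145 GFP- library. In PC3 the log2 difference was 0.03 ± 0.82, with an SE pooled over the 4 groups. The SD of the log2 values was 2.18 in DU145 GFP-, 0.0914 in DU145 GFP+, 0.648 in PC3 GFP+ and 0.825 in PC3 GFP-. The largest spread behind this SE was thus that of DU145 GFP-, so its width does not describe the PC3 libraries alone. With at most 12 counts per PC3 library, the presence of a sizeable PC3 difference was not tested.

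KIAA1324 was low but detected in all libraries outside DU145 GFP+. It measured 55.7, 64.3 and 63.0 CPM in DU145 GFP+ (787, 1066 and 812 counts) and 0.394, 0.678 and 0.428 CPM in DU145 GFP- (6, 10 and 6 counts). The PC3 GFP+ libraries held 12, 6 and 21 counts and the PC3 GFP- libraries 10, 18 and 8 counts, or 0.349 to 1.03 CPM. As with WDR63, the other 3 groups overlapped one another and stood apart from DU145 GFP+.

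The level of KIAA1324 in DU145 GFP- was 0.819% of that in DU145 GFP+. The log2 difference was 6.97 ± 0.38 in DU145 and -0.26 ± 0.38 in PC3, and the sign of the PC3 value changed when single libraries were left out (-0.61 to 0.10). The lowest DU145 GFP+ library held 86.3 times as much KIAA1324 RNA as the highest DU145 GFP- library. KIAA1324 shares 179 exon bases, 1.92% of its own, with C1orf194 on the other strand.

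**Figure D1:**
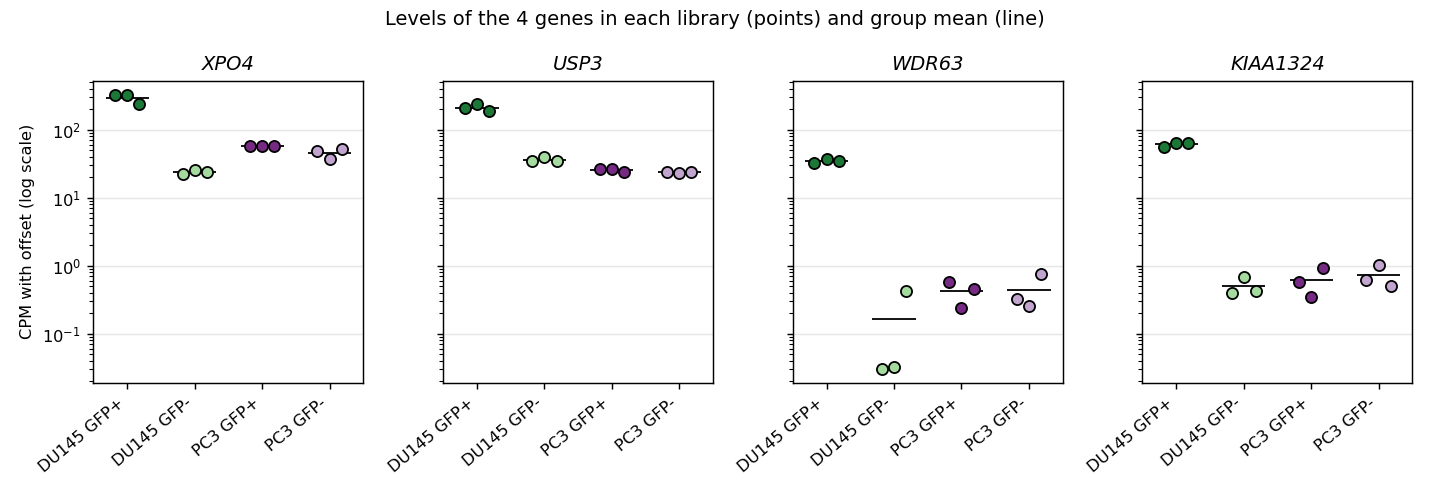
Level of each gene in CPM, offset included, on a log axis; each point is 1 library, the short line is the group mean, and the 4 groups are DU145 and PC3 sorted as GFP+ or GFP-. DU145 GFP+ stands above all other groups for each gene, and WDR63 and KIAA1324 lie below 1.1 CPM in the other 9 libraries.

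Per kilobase of exon the genes fell into a high and a lower pair in DU145 GFP+. XPO4 reached 27.9 and USP3 27.0 CPM per kb, WDR63 8.73 and KIAA1324 6.56. In DU145 GFP- the values were 2.25, 4.67, 0.0417 and 0.0538 CPM per kb in the same order. So XPO4 and USP3 were expressed in every group and higher in one, whereas WDR63 and KIAA1324 were close to the floor elsewhere. In bulk RNA, fewer cells with a transcript and less RNA per cell cannot be told apart.

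All 4 genes passed the minimum for testing (at least 1 CPM in at least 3 libraries), but WDR63 and KIAA1324 did so only through the DU145 GFP+ libraries. Among the 12527 genes that passed, WDR63 and KIAA1324 ranked 1 and 2 by the size of the DU145 log2 difference, XPO4 14 and USP3 56. In rank they were bordered by RFPL1S (6.04) after KIAA1324, ZNF516 (3.65) and ITGA1 (3.55) around XPO4, and EIF4E3 (2.54) and C12orf60 (2.50) around USP3. The bordering genes were expressed at lower levels, from 0.835 to 8.07 CPM in DU145 GFP+. A fitted DU145 log2 difference of at least 2 (4-fold) was found for 0.798% of the tested genes. Among genes with a DU145 GFP+ mean of at least 16 CPM, it was found for 12 of 7685 (0.156%). This counts differences of mean log2 values, and MATR3, among the 12, had a lower mean CPM in GFP+. The 4 genes are among those 12, and 3 of them are among the 5 with at least 8-fold.

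**Figure D2:**
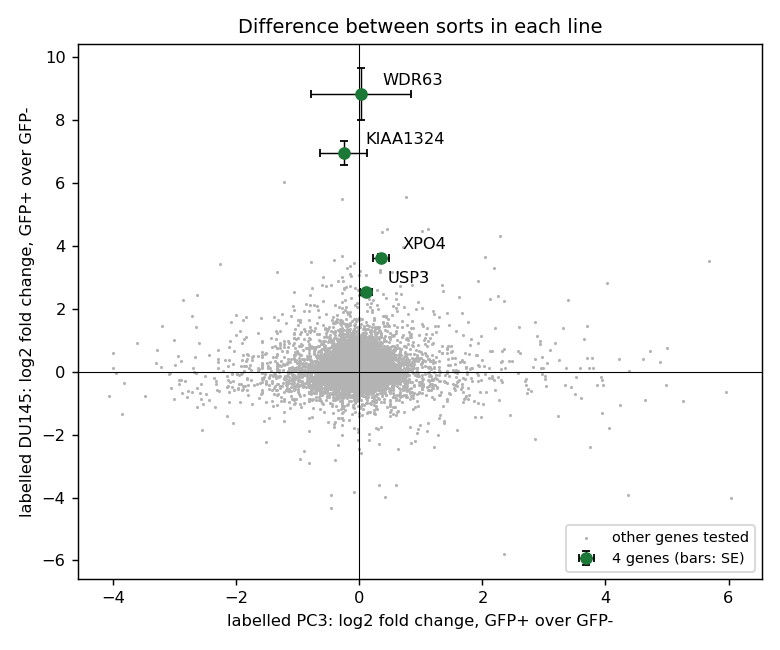
Log2 difference between GFP+ and GFP- in PC3 (horizontal) and DU145 (vertical) for the 12527 genes tested (grey) and the 4 genes (green, bars SE). WDR63, KIAA1324, XPO4 and USP3 lie between 2.53 and 8.84 on the DU145 axis and between -0.26 and 0.35 on the PC3 axis.

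Of the other 8 genes at 4-fold or more and 16 CPM, HIST2H2AA4 (log2 difference 2.45 ± 1.76) and MATR3 (2.34 ± 1.83, the entry ENSG00000280987, with mean levels of 17.3 against 21.0 CPM) did not pass in DU145. Among genes at this level that passed, the largest differences outside the 4 belonged to WLS, which escorts Wnt ligands to the cell surface (20.4 against 1.65 CPM, log2 difference 3.67), CCND2, a G1 cyclin (32.9 against 3.71 CPM, 3.19), and ATP2B1, a plasma membrane calcium pump (41.7 against 6.93 CPM, 2.60). CCND2 resembled WDR63 and KIAA1324 in being almost absent from PC3 (0.200 and 0.227 CPM), whereas WLS was well expressed there (41.2 and 49.9 CPM). HIST2H4B, HSPG2, KMT2C, ZSWIM5, HIST2H2BE, HIST2H4A and ZNHIT6 followed with log2 differences of 2.30 down to 1.69. HIST2H4A and HIST2H4B are near-identical copies whose reads may have been split between them. These genes were chosen by the size and the test of this same difference, so no p is given for them.

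Across the 12 libraries the levels of the 4 genes moved together, as their selection requires. Pearson's r of log2 levels ranged from 0.84 (USP3 with WDR63) to 0.96 (USP3 with KIAA1324) over all 12 libraries, which share the DU145 GFP+ group. Over the 6 PC3 libraries, r was 0.82 for XPO4 with USP3, 0.42 for XPO4 with WDR63, 0.23 for USP3 with WDR63 and -0.05 for WDR63 with KIAA1324. It was -0.58 for XPO4 with KIAA1324 and -0.74 for USP3 with KIAA1324. These are descriptions over few libraries, and the counts of WDR63 and KIAA1324 there were at most 21.

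Outside the 4 genes themselves, the genes whose log2 levels followed each of them most closely over the 12 libraries had DU145 differences of 0.54 to 2.32. They were picked as the highest r among all tested genes. The DU145 GFP+ rise used to select the 4 genes dominates these r values. High values therefore follow from the selection, and a shared regulation was not tested. For XPO4 they were SMAD4 (r = 0.95), the common mediator of TGF-β signalling, ZNF528 (0.94) and ZNF532 (0.93). SMAD4 and ZNF532 both lie on chromosome 18, and SMAD4 had whole estimated counts in only 5 of the 12 libraries. SMAD4 went from 39.2 CPM in DU145 GFP- to 74.5 CPM in DU145 GFP+ and lay at 47.4 and 45.2 CPM in the PC3 sorts. For USP3 they were the transcriptional repressor gene ZHX3 (0.99) and the histone genes HIST1H4H (0.97) and HIST1H2BD (0.96). ZHX3 had group means of 221 and 105 CPM in DU145 and 92.1 and 82.9 CPM in PC3. For WDR63 they were ZNF528 (0.94), the histone gene HIST1H2AG (0.93) and AGO4 (0.91), an Argonaute protein gene. For KIAA1324 they were FAM134B (0.95), a receptor for autophagy of the endoplasmic reticulum, ZNF814 (0.94) and ZHX3 (0.94). ZNF814 had whole estimated counts in 0 of the 12 libraries. ZNF528 was shared by XPO4 and WDR63, and ZHX3 by USP3 and KIAA1324.

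The 5 nearest tested genes on each side of each gene were not used in the selection and were tested with limma. Around the 4 genes together, 10 of 40 neighbours were higher in DU145 GFP+, 2 were lower and 28 did not pass. All 12 called neighbours make 30.0% of the 40, against 27.1% of all genes tested. The share called in either direction was thus near the background. By direction the calls were uneven, with 10 of 40 higher beside 13.1% of all genes and 2 of 40 lower beside 13.9%. The neighbours' log2 differences lay between -0.96 and 1.35 with a median of 0.10, against -0.01 over all genes. All 40 lay below 2.53, the value of USP3 and the smallest of the 4 genes. So did nearly all genes, since USP3 ranked 56 among the 12527 tested.

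The closest genes on either side of XPO4 were EEF1AKMT1, a methyltransferase gene 3.4 kb away, and LATS2, a kinase gene of the Hippo pathway. EEF1AKMT1 did not pass (-0.64 ± 0.38, adjusted p = 0.209). LATS2 measured 41.8, 47.8 and 42.3 CPM in DU145 GFP+ and 32.3, 29.7 and 33.3 CPM in DU145 GFP-, without overlap (0.47 ± 0.09, adjusted p = 0.00515). In PC3 its difference was 0.31 ± 0.09 (adjusted p = 0.0476), a call that was lost without any single PC3 library and with the replicate block (adjusted p = 0.0593). ZDHHC20 was higher (0.79, adjusted p = 0.0474) and SAP18 lower (-0.22, adjusted p = 0.0475) in DU145 GFP+. In PC3 the XPO4 neighbours GJA3 (-1.05, adjusted p = 0.0145) and CRYL1 (-0.94, adjusted p = 0.0345) were lower in GFP+.

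Beside USP3, neither APH1B nor FBXL22 shared the size of its difference. FBXL22, 2.7 kb away, did not pass (-0.36 ± 0.40, adjusted p = 0.501), while the γ-secretase subunit gene APH1B was higher in DU145 GFP+ (0.57 ± 0.15, adjusted p = 0.019). RAB8B (0.63, adjusted p = 0.0259), a small GTPase gene, and FAM96A (0.49, adjusted p = 0.0197) were higher as well.

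The nearest neighbours of WDR63 are the mucolipin channel genes MCOLN2 and MCOLN3. MCOLN2, 2.0 kb away, did not pass (0.00 ± 0.16, adjusted p = 0.987). MCOLN3, on the opposite strand within the span of WDR63 and with no exon base in common, had the largest difference among the neighbours. It held 66, 67 and 54 counts in DU145 GFP+ and 25, 30 and 24 in DU145 GFP- (4.71, 4.07 and 4.23 against 1.55, 1.97 and 1.61 CPM; 1.35 ± 0.33, adjusted p = 0.013). The sorts did not overlap, and whether unspliced WDR63 reads entered this count was not tested. SSX2IP (0.82, adjusted p = 0.0294), BCL10 (0.53, adjusted p = 0.0441) and DDAH1 (0.42, adjusted p = 0.0431) were also higher in DU145 GFP+. LPAR3, a lysophosphatidic acid receptor gene, was lower in PC3 GFP+ on low counts (2, 2 and 7 against 7, 12 and 15; -1.94 ± 0.41, adjusted p = 0.00982), a call lost with voom on recovered counts.

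KIAA1324 has TMEM167B 16.7 kb away on one side and SARS, the seryl-tRNA synthetase gene, 7.1 kb away on the other. TMEM167B did not pass (0.33 ± 0.12, adjusted p = 0.0594). SARS was lower in DU145 GFP+, opposite to KIAA1324, at 150.6, 154.7 and 178.0 CPM against 211.0, 191.3 and 216.4 CPM (-0.36 ± 0.10, adjusted p = 0.0235). CLCC1 was higher (0.36, adjusted p = 0.0421). In PC3 the cadherin gene CELSR2 was lower in GFP+ (16.8 against 33.5 CPM, -1.004 ± 0.11, adjusted p = 8.11e-05). Over all 40 neighbours, 1 was higher and 4 were lower in PC3 GFP+, or 12.5% against 9.44% of all genes (4.17% higher and 5.27% lower).

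**Figure D3:**
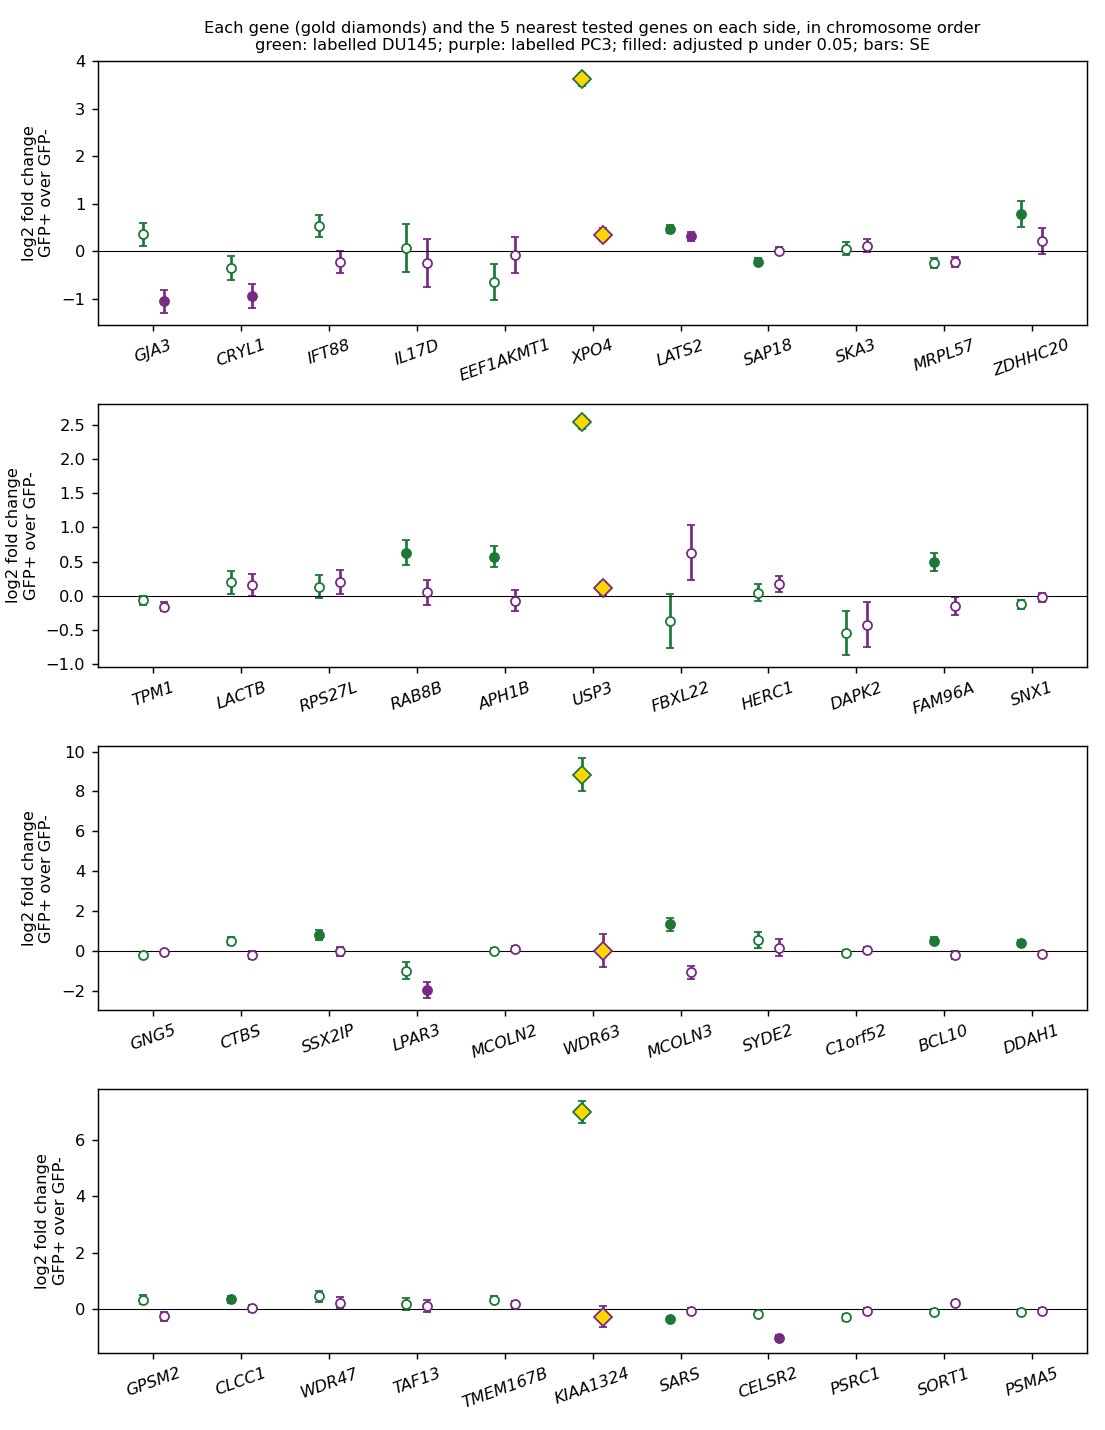
Log2 difference between GFP+ and GFP- for each gene (gold diamonds) and its 5 nearest tested genes on each side in chromosome order, in DU145 (green) and PC3 (purple), with SE bars and filled circles for adjusted p under 0.05. The neighbours lie between -1.94 and 1.35, and the gold diamonds of DU145 lie between 2.53 and 8.84.

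The calls among neighbours depended on single libraries. The count of 12 in DU145 became 2 without DU145 GFP+ 1 or GFP+ 2, 21 without GFP+ 3, 3 without GFP- 1 and 1 without GFP- 3, and of the 12 only LATS2 passed under every such omission. Across genes the DU145 difference followed GC content (Spearman rho -0.63, against -0.10 in PC3; genes are not independent replicates), and with the trend removed the neighbours called in DU145 were 2 higher and 7 lower. In PC3 the 5 calls became 2 without PC3 GFP+ 1 or GFP- 2 and 3 without GFP+ 2 or GFP+ 3, and CELSR2 and LPAR3 passed under every single omission, LPAR3 with an adjusted p of up to 0.0492.

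The partners of each gene were examined in lists of related genes, counted once over 6 lists: 16 of 120 tested members were higher and 18 lower in DU145 GFP+. That is 28.3%, beside 27.1% of all genes (13.1% higher and 13.9% lower), with a median of 0.05 against -0.01. In PC3, 5 were higher and 3 lower (6.67%, beside 9.44%).

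XPO4 belongs to the transport receptors, which work with the Ran cycle. Of 31 other members of this system, 6 were higher, 6 lower and 19 did not pass in DU145 GFP+ (median 0.06). The called share was 38.7%, beside 27.1% of all genes. The higher ones were XPO1, XPOT, IPO7, IPO8, IPO11 and KPNA5, with differences of 0.31 to 1.35. RANBP1, a Ran-binding protein, was lower at 151.2, 160.0 and 187.3 CPM against 238.8, 235.5 and 230.4 CPM (-0.51 ± 0.08, adjusted p = 0.00129). XPO5, the exporter of microRNA precursors (-0.36, adjusted p = 0.00332), and the importins IPO13 (-0.41, adjusted p = 0.00925) and IPO4 (-0.44, adjusted p = 0.0102) were also lower. Among the XPO4 cargoes and the enzymes that make hypusine on eIF5A, 1 of 5 tested passed: EIF5A was lower, at 1408 against 1758 CPM (-0.33 ± 0.11, adjusted p = 0.0428). SMAD3 stood at 422 and 397 CPM and did not pass (0.09, adjusted p = 0.434).

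Among 30 other genes of H2A ubiquitination and its removal, the system of USP3, 7 were higher and 3 lower in DU145 GFP+ (median 0.16). Together they make 33.3%, beside 27.1% of all genes. USP16, another H2A deubiquitinase, was at 24.0, 13.1 and 9.82 CPM against 5.79, 7.20 and 6.49 CPM (1.17 ± 0.28, adjusted p = 0.0133). BMI1, a Polycomb subunit of the H2A ligase, was at 16.8 against 8.47 CPM (0.98 ± 0.25, adjusted p = 0.0157). USP28, a deubiquitinase of the DNA damage response, was higher (0.47, adjusted p = 0.0145) and BAP1, the deubiquitinase of Polycomb-modified H2A, lower (-0.31, adjusted p = 0.0186). RNF168, the ligase that USP3 opposes, did not pass (0.34, adjusted p = 0.0522).

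The motile cilium genes to which WDR63 belongs were mostly too low to test. Of 45 listed, 43 were in the table and 21 reached the minimum, of which 1 was higher and 1 lower in DU145 GFP+ (median 0.11). That is 9.52% of the 21, beside 27.1% of all genes. The dynein heavy chain gene DNAH3 held 18, 18 and 18 counts in DU145 GFP+ and 9, 3 and 6 in DU145 GFP- (1.74 ± 0.51, adjusted p = 0.0261). DNAH3 reached the minimum only through the DU145 GFP+ libraries, as WDR63 did, and its call was lost with no minimum, so it gives no support. DNAAF5, a dynein assembly factor, was lower (-0.44 ± 0.07, adjusted p = 0.0016). The intermediate chain genes DNAI1 and DNAI2 and the ciliary regulator FOXJ1 had group means of at most 0.585 CPM, beside 34.2 CPM for WDR63 in DU145 GFP+.

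Of 24 tested relatives and partners of KIAA1324 in secretion and autophagy, 1 was higher and 6 lower in DU145 GFP+ (median -0.02). The called share was 29.2%, beside 27.1% of all genes (13.1% higher and 13.9% lower). SQSTM1, an autophagy receptor, was at 529 against 776 CPM (-0.56 ± 0.11, adjusted p = 0.00475). XBP1, a regulator of secretory capacity (-0.32, adjusted p = 0.0163), and ATG7, an enzyme of autophagosome formation (-0.38, adjusted p = 0.0207), were lower, and TGFBR1, a TGF-β receptor, was higher (0.63, adjusted p = 0.0259). Of 9 tested Wnt feedback genes, LEF1 was higher and KREMEN1, a receptor for the inhibitor DKK1, lower (-0.55 ± 0.11, adjusted p = 0.00534). The other 7 did not pass in DU145, and the list median was -0.29.

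**Figure D4:**
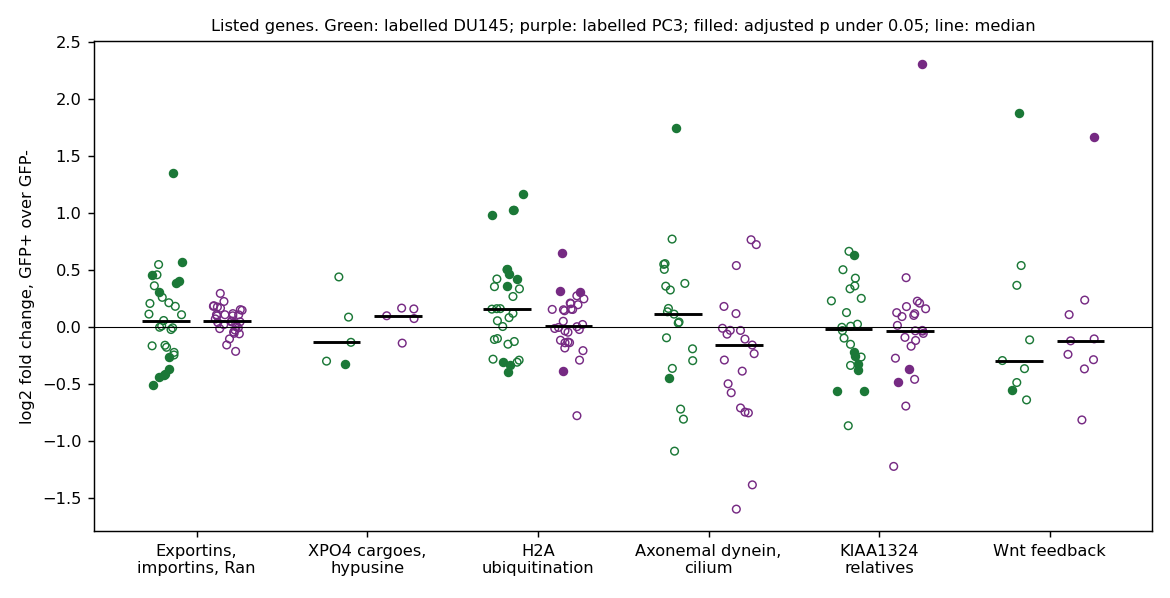
Log2 difference between GFP+ and GFP- of the tested genes of each list, in DU145 (green, left) and PC3 (purple, right); filled circles have an adjusted p under 0.05 and the line is the median. The list medians lie between -0.29 and 0.16, and calls occur in both directions in DU145.

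Of the 34 listed genes called in DU145, DNAAF5, IPO13, KREMEN1, LEF1, RANBP1, SQSTM1 and XPO5 passed under every omission of 1 library. The count became 8 without DU145 GFP+ 1 or GFP+ 2, 56 without GFP+ 3, 13 without GFP- 1 and 7 without GFP- 3, and with the GC trend removed it was 7 higher and 17 lower.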

How the data were processed

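The 12 libraries of total RNA were sequenced, and the deposited table holds 1 log2 value per gene and library. STAR and DESeq2 appear, with no version, in the submitters' processing notes. How reads were counted, and on which build and annotation, is not given in the sources used here. From the values, the deposited log2 scale was read as log2 CPM, that is (count + 0.5) over a scaled library total, and undoing it gave estimated counts of which 86.4% to 88.0% per library were whole within 0.01.

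Group means were fitted with limma 3.58.1 in R 4.3.3 (12 libraries, 8 residual degrees of freedom, moderated variance with trend) for genes whose log2 value reached 0 in 3 or more libraries, with Benjamini-Hochberg adjustment at 0.05 over 12527 genes. An earlier description of these data used a higher minimum, which would have removed low neighbours. Differences are on the log2 (CPM with offset) scale, where the offset can understate changes of low genes. Where some libraries are at 0, the fitted fold can also exceed the ratio of mean levels. For WDR63 in DU145 it was 457, against 209 for the ratio of mean CPM. The fit was checked on simulated data with independent noise per gene. Those data held no GC trend and no outlying library, so the check does not cover either.

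GENCODE 29 matched 18901 of 18950 identifiers. Named were the 4 genes, the nearest neighbour on each side and every called neighbour, up to 4 called genes per list with the smallest DU145 p, the 3 genes most correlated with each gene, and the 10 further genes with the largest called DU145 differences at 16 CPM or more. Genes named because they bear on the function of the 4 genes (SMAD3, RNF168, DNAI1, DNAI2, FOXJ1) or complete a count (the 6 higher transport genes, HIST2H2AA4, MATR3) were chosen after their values were seen. The members and lists were chosen with earlier results of these data known. Replicate numbers were not treated as pairs.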

Additional observations from a re-analysis of the deposited data

Results flagged for a closer look

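The difference between sorts itself differed between the labels DU145 and PC3 for 13 of the named neighbours and listed genes (limma, interaction of line and sort, adjusted over 12527 genes). Most of the named genes had been named for a call in DU145 or PC3. Over all neighbours 4 of 40 (10.0%) passed, and over all listed genes 19 of 120 (15.8%), beside 15.9% of all genes. For XPO4, USP3, WDR63 and KIAA1324 this comparison was part of the selection and is not tested.

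Near WDR63, MCOLN3 had a DU145 difference exceeding that in PC3 by 2.40 ± 0.46 log2 (SE, adjusted p = 0.00429), and its own PC3 difference did not pass (-1.05, adjusted p = 0.0599; 6, 6 and 7 counts against 8, 10 and 17). Near XPO4, GJA3 differed by 1.41 ± 0.34 (adjusted p = 0.016). Near KIAA1324, CELSR2 differed by 0.85 ± 0.16 (adjusted p = 0.00396), and near USP3, FAM96A differed by 0.64 ± 0.19 (adjusted p = 0.0349).

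Among the cilium genes, DNAH3 differed by 3.13 ± 0.72 (adjusted p = 0.012), but it reached the minimum for testing only through the DU145 GFP+ libraries, so this value is a description. DNAAF5 differed by -0.43 ± 0.10 (adjusted p = 0.0116). Among the H2A ubiquitination genes, USP16 differed by 1.30 ± 0.40 (adjusted p = 0.0443), USP28 by 0.67 ± 0.16 (adjusted p = 0.0162) and BAP1 by -0.61 ± 0.11 (adjusted p = 0.00387). Among the transport genes, RANBP1 differed by -0.61 ± 0.11 (adjusted p = 0.00292) and XPO5 by -0.54 ± 0.09 (adjusted p = 0.00214). SQSTM1 differed by -0.79 ± 0.15 (adjusted p = 0.00432) and KREMEN1 by -0.79 ± 0.15 (adjusted p = 0.00434).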

How the results depend on the processing

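The 4 genes kept their direction in DU145 under all settings tried. Left-out single libraries gave 3.53 to 3.77 for XPO4, 2.44 to 2.61 for USP3, 8.18 to 10.09 for WDR63 and 6.82 to 7.21 for KIAA1324 (log2). WDR63 and, where needed, KIAA1324 were kept in these fits although they fell below the minimum without DU145 GFP+ libraries. An offset of 8 counts gave 5.82 for WDR63 and 5.99 for KIAA1324, by construction; quantile normalization gave 7.28 for KIAA1324. Settings chosen after seeing the data gave 3.02 for XPO4 and 2.19 for USP3 with the GC and length trend removed, and 3.32 and 2.37 without DU145 GFP+ 1 and 2 together; the cause was not tested. In PC3 the ranges over single omissions were 0.21 to 0.45 (XPO4), 0.08 to 0.15 (USP3), -0.29 to 0.49 (WDR63) and -0.61 to 0.10 (KIAA1324).

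Counts of calls moved more, and the cause was not tested. Of all genes in DU145, 3389 were called, 887 (without GFP+ 1) to 5582 (without GFP+ 3) over single omissions, 2165 with quantile normalization and 167 without DU145 GFP+ 1 and 2. In PC3, 1182 became 641 (without GFP+ 1) to 1185, 2375 with the GC trend removed and 411 without PC3 GFP- 2 and 3. The 12 neighbours called in DU145 became 1 to 21, 7 with no minimum, 3 with quantile normalization, 6 with voom on recovered counts and 0 without DU145 GFP+ 1 and 2 (limma; 4 at an unadjusted p under 0.05). The 5 in PC3 became 2 to 4, 2 with a minimum of log2 4, 3 with equal medians, 3 with quantile normalization, 8 with the GC trend removed and 1 without PC3 GFP- 2 and 3. The 34 listed genes called in DU145 became 7 to 56, 20 with quantile normalization and 1 without DU145 GFP+ 1 and 2. The 8 in PC3 became 0 (limma, without PC3 GFP+ 1; 23 at an unadjusted p under 0.05) to 11, 24 with the GC trend removed and 2 without PC3 GFP- 2 and 3.

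The split of higher and lower calls also moved. In DU145 it was 1647 and 1742, 1313 and 2305 with equal medians, and 819 and 1935 with the GC trend removed; in PC3 it was 522 and 660, 509 and 412 with equal medians, and 1352 and 1023 with the GC trend removed. With the replicate number as a block, 4842 genes were called in DU145 and 1551 in PC3, with 15 and 4 neighbours and 51 and 10 listed genes. Same-numbered sorts correlated, as deviations from group means, at -0.02, 0.09 and 0.21 in DU145 and 0.06, 0.20 and 0.14 in PC3, and with a minimum of log2 4 at -0.21, 0.19 and 0.47 and at 0.12, 0.43 and 0.35. At the minimum used, every PC3 library correlated best with its own number, a hint from the data and not the design, and the DU145 libraries did not. voom with TMM was not run. Depth limits WDR63 and KIAA1324 outside DU145 GFP+, where counts were at most 21.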
